A study of Mus musculus with 6 samples.

Results

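The renin-angiotensin system genes described here are 8 genes: angiotensinogen (Agt), the renin gene (Ren1), the angiotensin-converting enzyme gene (Ace), the neprilysin gene (Mme), the (pro)renin receptor gene (Atp6ap2) and the angiotensin receptor genes Agtr1a, Agtr1b and Agtr2. For each gene, accessible intervals were taken that overlapped the stretch from 3 kb upstream of the gene start to the gene end. The 8 genes held 68 of the 279569 intervals of the pooled peak call, with 168 of its summits. ATAC-seq, in which a transposase cuts open chromatin, had been run on nuclei of mouse kidney cortex. The libraries mapped here were 3 WT libraries and 3 libraries of a tubule-specific Acly knockout (Acly cKO), all labelled as control treatment. By the methods of the study, both groups carried Acly fl/fl, and the Acly cKO mice carried in addition Ksp-Cre (Cdh16-Cre), which is active in tubular epithelium. By the same methods the controls were littermates without Cre, and strain and age at this assay are not given in the sources used here. Further WT libraries had been deposited earlier and were not analysed here, and the files do not show whether they entered the pool. The deposited call has no column for a single library. Depth per library is therefore unknown, the values below carry no replicate error, no test was made, and the genotypes were not compared. Batches 1 and 2 held the WT libraries and batches 4 and 5 the Acly cKO libraries, and the effects of genotype and of batch cannot be told apart in this design.

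Renin, an aspartyl protease released by juxtaglomerular cells of the afferent arteriole, cuts angiotensinogen to angiotensin I. ACE, a dipeptidyl carboxypeptidase of endothelium and of the proximal tubule brush border, converts it to angiotensin II, which acts on type 1 and type 2 receptors to control vascular tone, sodium transport and aldosterone release. Neprilysin, another brush border peptidase, degrades angiotensins and other peptides, and the (pro)renin receptor is also an accessory subunit of the vacuolar proton pump. Mice carry a pair of genes for the type 1 receptor, Agtr1a and Agtr1b.

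Sequences of GRCm39 that the results turn on are given first, each 5′ to 3′ on the strand of its gene. Capitals mark motif matches on either strand, which may overlap. The TATA box was searched as TATAAA and the CCAAT box by the letters of its name. The GC box was searched as GGGCGG. An element bound by nuclear receptors was searched as AGGTCA. Motifs for the cAMP response (TGACGTCA), for the factor HNF1 (its letters were GTTAAT) and for the factor HNF4 (its letters were CAAAGTCCA) were searched in the same way and were not found in the windows printed. The core windows hold the TATAAA match that preceded a RefSeq start in 4 of the genes, and in Ace the match was on the opposite strand.
Ren1 core, chr1:133278371-133278400, plus strand: atacatggtgtgTATAAAagaaggctcagg
Agt core, chr8:125296458-125296487, minus strand: ccaccccttgagTATAAAtaagcctgcttg
Ace core, chr11:105858731-105858760, plus strand: tggtggctgggtTTTATAatccgcagggcg
Agtr1b core, chr3:20421355-20421384, minus strand: gcccctttgctgTATAAAttgtagctgtct
The upstream and intron 1 windows of Ren1 surround the highest summits of its strongest intervals.
Ren1 upstream, chr1:133275616-133275815, plus strand: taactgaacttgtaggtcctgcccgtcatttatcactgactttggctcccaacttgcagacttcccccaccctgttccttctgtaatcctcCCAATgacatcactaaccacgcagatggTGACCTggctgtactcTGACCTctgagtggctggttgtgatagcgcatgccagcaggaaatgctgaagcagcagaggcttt
Ren1 intron 1, chr1:133281300-133281499, plus strand: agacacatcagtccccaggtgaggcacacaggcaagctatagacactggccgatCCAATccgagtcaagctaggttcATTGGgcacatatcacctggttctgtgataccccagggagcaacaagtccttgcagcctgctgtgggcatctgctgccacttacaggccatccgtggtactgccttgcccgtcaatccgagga
The inner window of Ace precedes the start of an annotated transcript that begins inside the gene.
Ace inner start, chr11:105865834-105866033, plus strand: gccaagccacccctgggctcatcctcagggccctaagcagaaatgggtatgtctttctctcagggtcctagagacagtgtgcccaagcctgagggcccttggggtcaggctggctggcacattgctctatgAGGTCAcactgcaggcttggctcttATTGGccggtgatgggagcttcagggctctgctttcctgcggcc
The Atp6ap2 window precedes the strongest start among the 8 genes, and the Agtr2 window precedes a start without any interval.
Atp6ap2 promoter, chrX:12453790-12453959, plus strand: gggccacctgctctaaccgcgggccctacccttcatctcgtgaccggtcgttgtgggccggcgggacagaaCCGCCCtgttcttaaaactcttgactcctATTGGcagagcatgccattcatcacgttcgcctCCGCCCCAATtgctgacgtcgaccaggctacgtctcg
Agtr2 promoter, chrX:21350563-21350762, plus strand: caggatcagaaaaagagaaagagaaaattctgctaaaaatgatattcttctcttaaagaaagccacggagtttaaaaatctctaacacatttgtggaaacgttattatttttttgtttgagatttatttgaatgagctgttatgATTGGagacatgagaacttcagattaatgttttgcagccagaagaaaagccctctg
The intron windows of Mme and Agtr1a surround the highest summits of the strongest intervals of these genes other than their start intervals.
Mme intron 3, chr3:63233134-63233333, plus strand: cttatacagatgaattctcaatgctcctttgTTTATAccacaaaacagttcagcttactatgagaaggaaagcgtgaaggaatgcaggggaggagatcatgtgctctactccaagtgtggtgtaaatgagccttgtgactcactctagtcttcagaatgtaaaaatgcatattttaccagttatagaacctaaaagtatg
Agtr1a intron 2, chr13:30545051-30545250, plus strand: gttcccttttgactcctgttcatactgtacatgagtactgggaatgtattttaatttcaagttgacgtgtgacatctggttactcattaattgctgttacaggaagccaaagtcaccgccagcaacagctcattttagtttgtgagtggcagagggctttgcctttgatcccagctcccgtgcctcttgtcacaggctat

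Accessibility at the start sites spread over a wide range. Each interval takes the fold enrichment and the q of its highest summit, where fold enrichment is the ratio of the pooled signal to the background of the authors' caller. An interval was counted at a start when it overlapped 1 kb on either side of the canonical GENCODE transcript start. The highest start-site fold enrichment was 42.8 at Atp6ap2, 30.0 at Mme, 24.9 at Agt, 16.1 at Agtr1a, 11.1 at Ace and 2.03 at Agtr1b, while Ren1 and Agtr2 had no interval there. The highest of these values was 21.1 times the lowest. Neighbours in this order could not be compared beyond their spread, since there are no replicates.

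**Figure D1:**
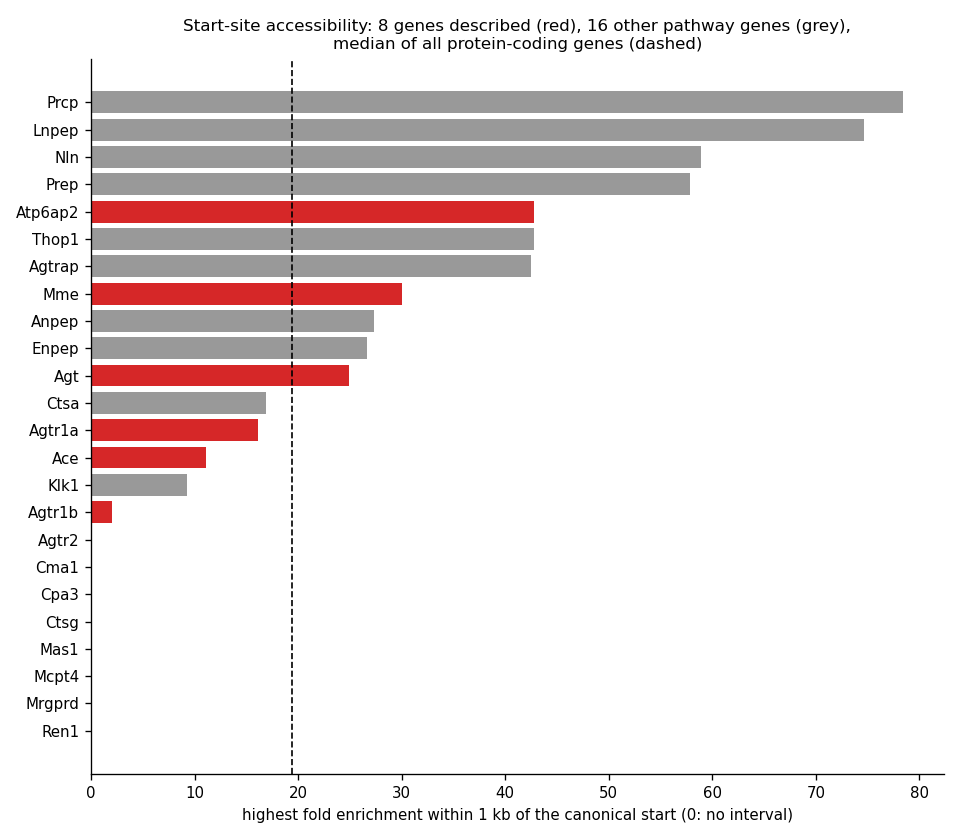
Bars give the start-site fold enrichment (linear axis) of each of the 8 genes (red) and of 16 other genes of the pathway (grey). The value is the highest among intervals that overlap 1 kb on either side of the canonical start. No bar is drawn where no such interval was called, and the dashed line is the median of 19.4 over all protein-coding genes. Atp6ap2, Mme and Agt lie above the line, Agtr1a, Ace and Agtr1b below it, and Ren1 and Agtr2 have no bar.

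Among the 8 genes, 7 had an interval anywhere in the stretch examined, against 83.2% of 21757 protein-coding genes. At the start, 6 of the 8 had an interval, against 75.8% of protein-coding genes, and 5 of the 8 had one of at least 5-fold, against 66.2%. These shares lay near the background. The median start-site fold enrichment, with genes without an interval set to 0, was 13.6 over the 8 genes and 19.4 over all protein-coding genes. Atp6ap2 stood above 76.0% of protein-coding genes, Mme above 61.9%, Agt above 56.3%, Agtr1a above 46.7%, Ace above 41.9% and Agtr1b above 25.7%.

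The strength of the 68 intervals lay near that of the whole call. A fold enrichment of at least 5 was reached by 17 of them (25%), against 24.5% of all intervals, and a q under 1e-05 by 34 (50%), against 54.9% of all intervals. The median fold enrichment was 2.39, against 2.55 over all intervals, and 40 intervals (58.8%) lay under 3-fold, against 59.0% of all intervals. Fold enrichment and q ranked these intervals in the same order, and each fold value in the call had a single q. The highest summit lay in an intron in 46 intervals, upstream of the canonical start in 14 and in an exon in 8. Of the intervals, 37 belonged to Mme, 9 to Agtr1a, 6 to Ren1, 5 each to Agt, Ace and Atp6ap2, 1 to Agtr1b and 0 to Agtr2. The median over protein-coding genes was 4 intervals per gene.

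Per length, the order changed. Ren1 had 4.68 intervals per 10 kb, Mme 2.51, Agt 2.45, Ace 1.97, Agtr1a 1.77, Atp6ap2 1.13 and Agtr1b 0.179, and the median over protein-coding genes was 1.86. Ace had the largest share of its sequence covered by intervals, at 31.4%, and Atp6ap2, with the strongest start, only 8.56%. The median share over protein-coding genes was 16.7%. The count for Mme came with a stretch of 147563 bp, against a median of 22173 bp for protein-coding genes.

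**Figure D2:**
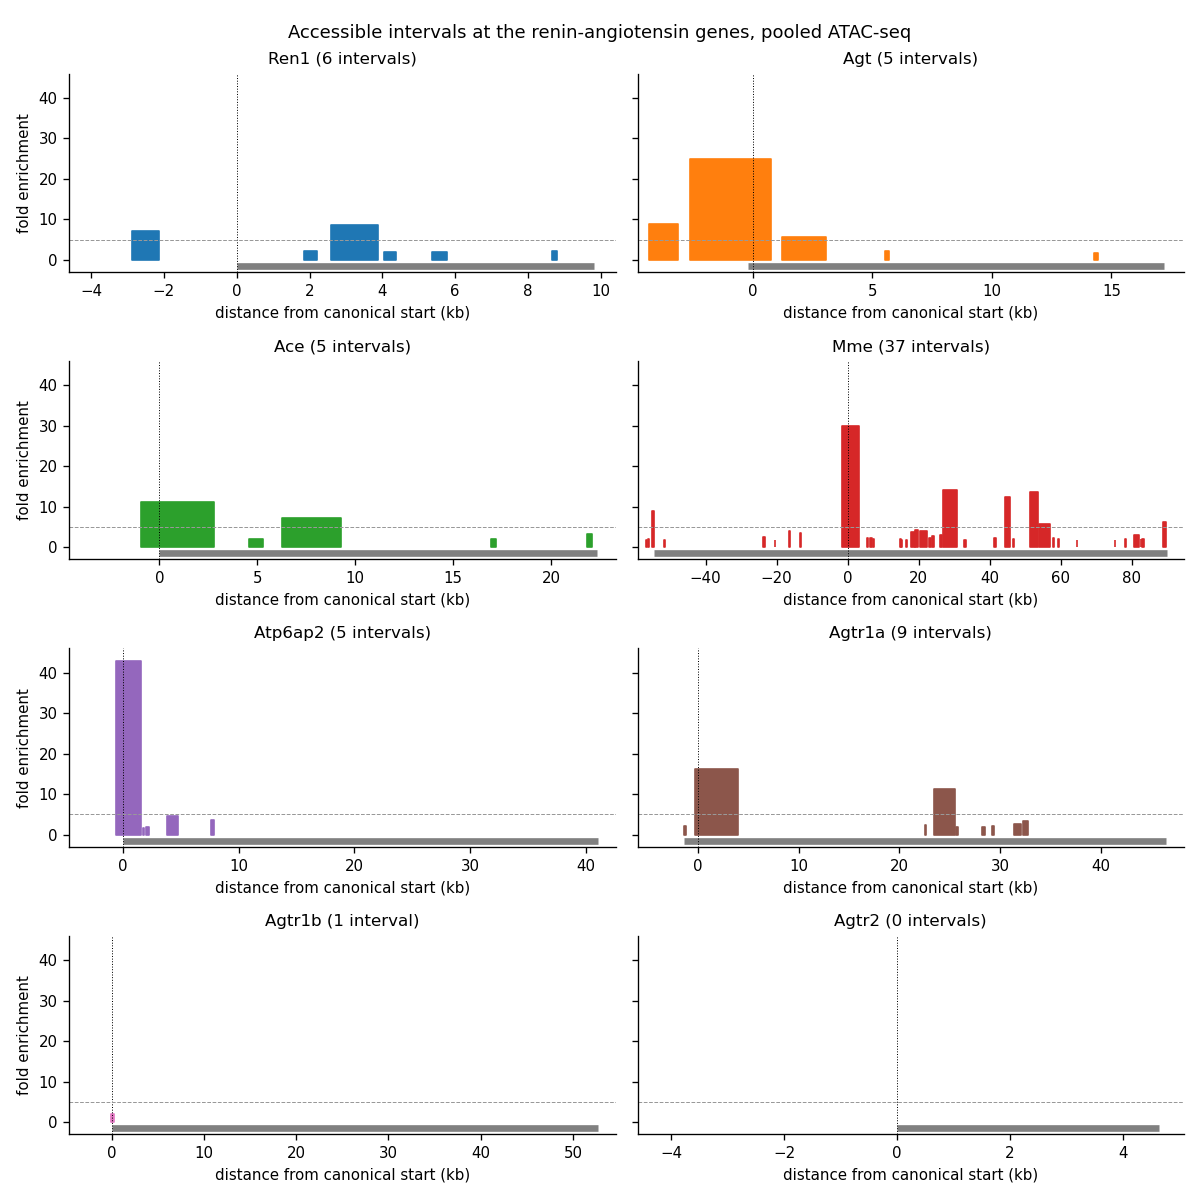
Each panel shows one gene, with distance from the canonical start in kb on the horizontal axis (scale differs between panels), fold enrichment of the highest summit as the height of each interval and the gene extent as a grey bar; dotted lines mark the start and dashed lines 5-fold. Ren1 has its tall intervals on either side of a start without a called interval, Mme has tall intervals along its introns, and Agtr2 has none.

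Agt, the gene of the substrate (ENSMUSG00000031980.12, chr8:125279301-125296716, minus strand, 5 exons), had a broad interval over its start. The interval chr8:125295757-125299111 held 7 summits over 3355 bp. Its highest summit, 24.9-fold with a −log10 q of 383, lay 66 bp upstream of the canonical start and 130 bp upstream of the RefSeq start. A summit of 8.84-fold lay 459 bp downstream in intron 1, 1 bp from the start of an alternative Agt transcript. The same interval also covers the outermost annotated start, at 125296350, of Capn9, a calpain protease gene on the plus strand whose canonical start lies beyond the interval at 125302815. The signal there cannot be assigned to Agt alone. In intron 1, the interval chr8:125293459-125295268 reached 5.76-fold 2411 bp downstream of the start. The interval chr8:125299612-125300858 reached 8.84-fold, but only 105 bp of it lay in the stretch examined and its summit, 3887 bp upstream, lay inside Capn9. The remaining intervals were weak, 2.10-fold in exon 2 and 1.70-fold in exon 5.

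The Agt start combined a strong interval with an absence of CpG. The 300 bases from 250 before to 50 after the canonical start held 0 CpG and a TATAAA match, the one shown in the Agt core window 30 bases upstream of the RefSeq start. Among the 1099 protein-coding promoters with no CpG, 15.4% had an interval at the start and 97.9% had a lower fold enrichment than Agt. Among the 6093 promoters with 20 or more CpG, a class that holds Atp6ap2 with 23 and Mme with 31, 99.0% had an interval at the start, with a median of 40.5-fold. Ace had 13 CpG, Agtr1a 11, Agtr1b 5, Agtr2 2 and Ren1 1, against a median of 11. The counts move with the annotated start, and around the RefSeq starts Agt had 1 CpG and Ace 29.

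**Figure D3:**
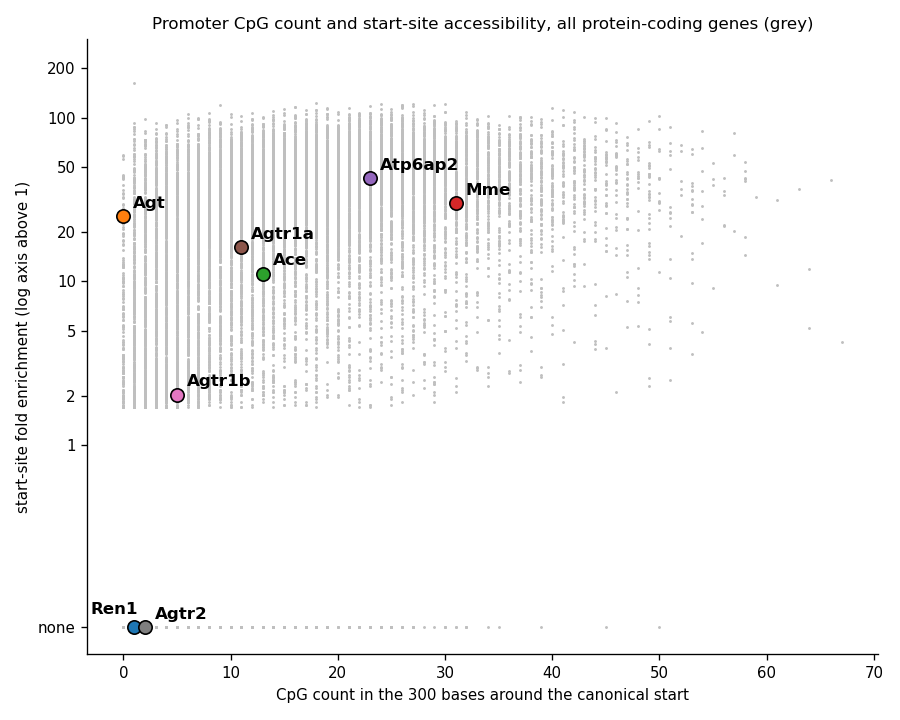
Points are protein-coding genes (grey) and the 8 genes (coloured and named), with the CpG count in the 300 bases around the canonical start on the horizontal axis and the start-site fold enrichment on a logarithmic vertical axis, where none means no interval. Agt sits at 0 CpG and 24.9-fold, apart from Ren1 and Agtr2, which have 1 and 2 CpG and no interval.

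Ren1, the renin gene (ENSMUSG00000070645.6, chr1:133278248-133288063, plus strand, 9 exons), had intervals called on either side of its canonical start but none at it. This absence does not show that the site was closed in every cell. No interval lay within 1 kb of the canonical start, nor within 1 kb of the RefSeq start, which a match of its sequence placed 164 bp downstream at 133278412. The RefSeq start lay 32 bp before the coding sequence and had a TATAAA match 29 bases upstream, printed in the Ren1 core window. In the reference genome, 99.4% of the 50-base words around the start occur once. The annotation has 0 genes named Ren2, a copy of renin that some strains carry, and its part in the reads at Ren1 was not tested.

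Upstream of Ren1, the interval chr1:133275368-133276110 reached 7.07-fold with a −log10 q of 53.6, higher than 82.4% of all intervals. Its summit lay 2532 bp upstream of the canonical start and 2696 bp upstream of the RefSeq start, and the interval spanned 3044 to 2302 bp upstream of the latter. An enhancer with cAMP and nuclear receptor elements is known some kilobases upstream of the mouse renin gene, as background. The summit window, printed as Ren1 upstream, held 2 AGGTCA matches on the opposite strand, 2513 and 2497 bp upstream of the canonical start, and a CCAAT match 2541 bp upstream. AGGTCA occurred in 17.7% of the 200-base summit windows of all intervals and in 15.1% of promoters. CCAAT occurred in 22.8% of summit windows and 39.9% of promoters.

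The strongest interval of Ren1 lay in intron 1, at chr1:133280828-133282124. It reached 8.51-fold with a −log10 q of 73.8, 3152 bp downstream of the canonical start, and a neighbouring summit 2974 bp downstream reached 7.40-fold. Its summit window held 2 CCAAT matches, 1 on each strand. The other 4 intervals of Ren1 lay between 1.83-fold and 2.23-fold, in introns 1, 2, 4 and 7. An alternative Ren1 transcript is annotated from intron 1, and the 2.23-fold interval had a summit 691 bp downstream of its start. Among 4 marker genes of juxtaglomerular and mural cells, all had an interval at the start and 2 reached 5-fold there. Over all protein-coding genes, these shares were 75.8% and 66.2%. The start-site fold enrichment of the 4 markers ran from 3.01 at Akr1b7, a gene of juxtaglomerular cells, to 9.23 at Myh11, the smooth muscle myosin heavy chain gene. In pooled bulk tissue, fewer cells of a type and less accessibility per cell cannot be told apart.

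**Figure D4:**
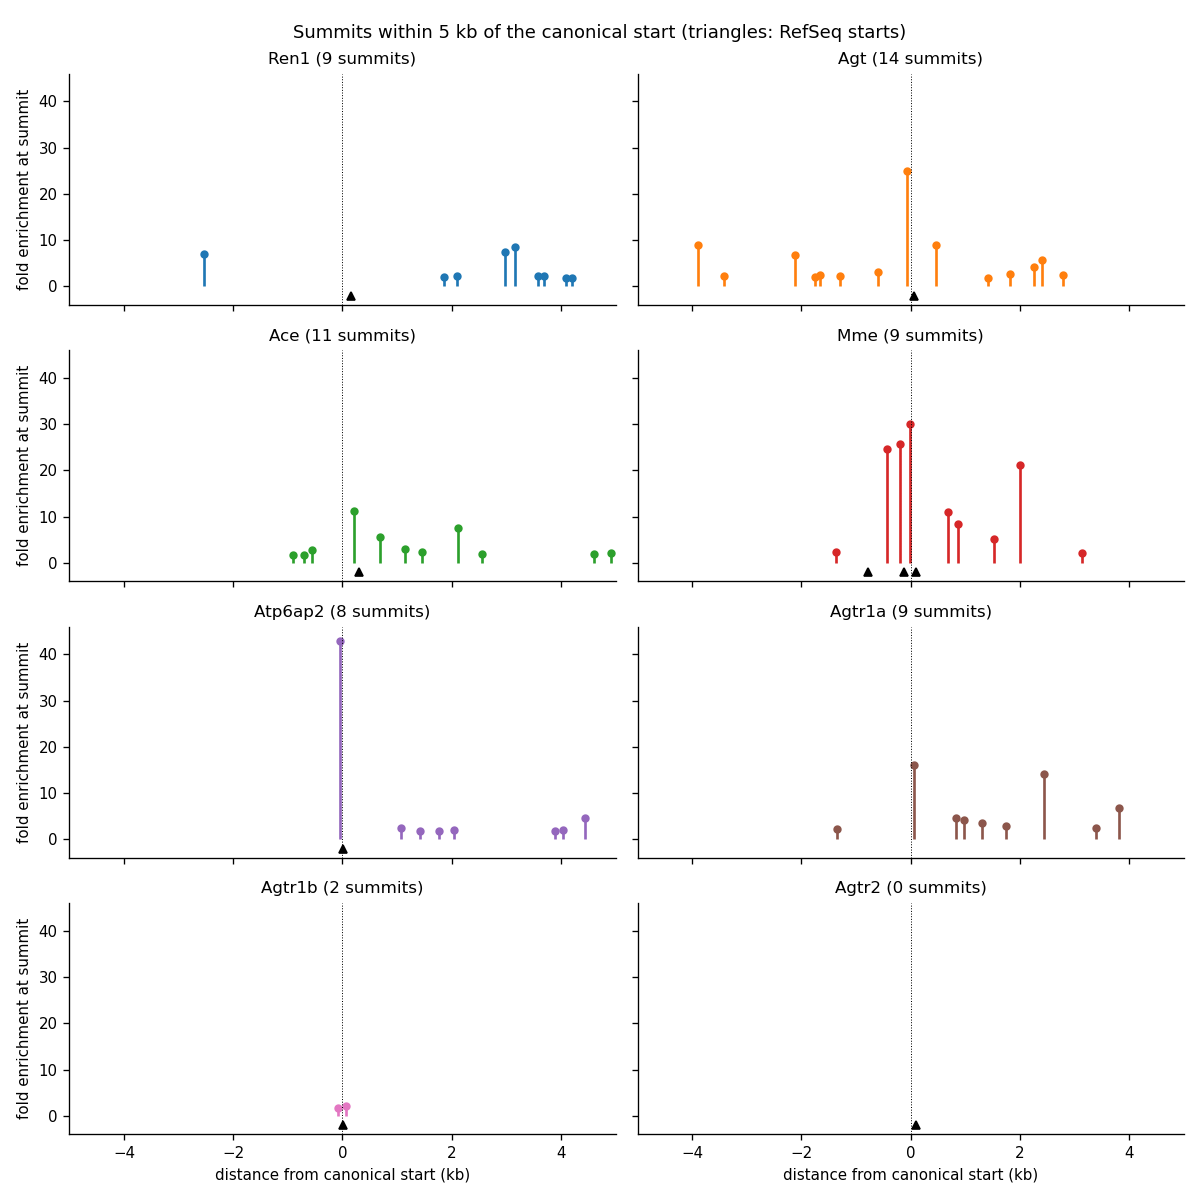
Every summit within 5 kb of the canonical start of each gene is drawn as a line and point, with distance in kb on the horizontal axis and fold enrichment on the vertical axis; triangles mark RefSeq starts. Ren1 has summits of 7.07-fold upstream and 8.51-fold downstream with a gap at the start, whereas Mme has several summits above 20-fold around its start.

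Ace (ENSMUSG00000020681.16, chr11:105858469-105880790, plus strand, 25 exons) had its strongest interval at the start and another over a start inside the gene. The interval chr11:105857534-105861277 held 9 summits, the highest at 11.1-fold with a −log10 q of 115. That summit lay in exon 1, 204 bp downstream of the canonical start and 101 bp upstream of the RefSeq start. Downstream in the same interval, a summit in exon 3 reached 7.46-fold 2120 bp from the start.

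The inner interval of Ace, chr11:105864738-105867726, also held 9 summits and reached 7.33-fold in exon 12. A shorter ACE made in male germ cells is known to start from a promoter inside this gene. The annotated transcript Ace-202 starts in intron 12, 7565 bp downstream of the canonical start. A summit of 6.74-fold lay 3 bp upstream of the Ace-202 start, and a RefSeq start lay at 105866015. The window before Ace-202, printed as Ace inner start, held an AGGTCA match and a CCAAT match on the opposite strand. All 3 markers of male germ cells examined, Prm1, Tnp1 and Acrv1, had no interval at their starts, where 75.8% of protein-coding genes had one. Acrv1 had 1 interval elsewhere in its stretch, at 1.77-fold. The cell source of the inner interval of Ace was not tested. Gm11651, a long noncoding RNA gene, has annotated starts in both strong intervals, so their signal cannot be assigned to Ace alone. The remaining intervals of Ace lay at 2.16-fold in intron 7, 1.96-fold in intron 19 and 3.34-fold in exon 25.

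Mme, the neprilysin gene (ENSMUSG00000027820.14, chr3:63148889-63293451, plus strand, 23 exons, 14 transcripts), had the most intervals of the 8 genes, with 7 of its 37 at 5-fold or more. The start interval chr3:63201884-63206703 was 4820 bp wide with 9 summits. The highest summit, at 30.0-fold with a −log10 q of 496, lay 5 bp upstream of the canonical start. Summits of 25.7-fold and 24.6-fold lay 199 and 435 bp upstream, and a summit of 21.2-fold lay 1996 bp downstream in intron 1. The summits upstream fell among several alternative starts, of which RefSeq has 3, between 782 bp upstream and 102 bp downstream of the canonical start. The summit in intron 1 lay 937 bp downstream of its nearest annotated start, that of transcript Mme-203.

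Mme also had strong intervals far from this start. At the outermost annotated start, 8.90-fold was reached at chr3:63148345-63149016, with the summit 145 bp upstream of the start of transcript Mme-211 and 54670 bp upstream of the canonical start. The interval chr3:63230351-63234220 in intron 3 reached 14.3-fold 29820 bp downstream, and its window is printed as Mme intron 3. In intron 16, chr3:63254642-63257000 reached 13.6-fold 53213 bp downstream, and the neighbouring chr3:63257243-63260480 reached 5.83-fold. In intron 9, chr3:63247641-63249095 reached 12.5-fold 44665 bp downstream. The 200-base summit window in intron 3 held 1 CpG, that of the 13.6-fold summit in intron 16 held 1 and that in intron 9 held 0. The promoter window, which is longer at 300 bases, held 31. The last strong interval, 6.35-fold at chr3:63292368-63293106, lay in exon 23. The lower end was broad, with 23 intervals under 3-fold and 1.70 as the lowest value.

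Atp6ap2, the (pro)renin receptor gene (ENSMUSG00000031007.4, chrX:12453960-12495037, plus strand, 9 exons), showed the opposite arrangement, with 1 strong interval and little else. The interval chrX:12453374-12455533 reached 42.8-fold with a −log10 q of 807, above 98.2% of all intervals. Its summit lay 47 bp upstream of the canonical start. The printed promoter window held 2 CCAAT matches and 2 GC box matches, and GC boxes occurred in 42.5% of all promoters. The other intervals reached 4.58-fold and lower in intron 1 and 3.60-fold in intron 2, and none was called in the rest of the gene.

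Agtr1a and Agtr1b, which encode the type 1 receptor, differed widely in the call. Agtr1a (ENSMUSG00000049115.17, chr13:30518942-30566850, plus strand, 3 exons) had a start interval at chr13:30520064-30524302 with 8 summits. The highest, 16.1-fold with a −log10 q of 203, lay 69 bp downstream of the canonical start in exon 1. A summit of 14.2-fold lay 2449 bp downstream in intron 1, and a summit of 6.74-fold lay 3809 bp downstream. In intron 2, the interval chr13:30543807-30545822 reached 11.2-fold 24814 bp downstream. The other 7 intervals of Agtr1a lay between 1.90-fold and 3.27-fold.

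Agtr1b (ENSMUSG00000054988.12, chr3:20368609-20421348, minus strand, 2 exons) had a single interval, chr3:20421113-20421450, at 2.03-fold with a −log10 q of 2.84. Its summit lay 71 bp downstream of the start in exon 1. The fold values of all 68 intervals were whole numbers of a step of 0.0655, to within 0.05 of a step. The value at Agtr1b was 31 steps, and the lowest value in the call was 26 steps. The Agtr1b promoter held a TATAAA match 31 bases upstream of the RefSeq start, and TATAAA occurred in 13.2% of promoters.

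The authors kept uniquely mapped reads, which can remove signal where near-identical genes share sequence. The coding sequences of Agtr1a and Agtr1b, of 1077 bp each, were 90.8% identical. Of the 50-base words in the Agtr1a coding sequence, 3.21% also occurred in that of Agtr1b. Around the starts, 0 words were shared. Within 1 kb of the start, 100% of words at Agtr1b and 92.8% at Agtr1a occurred once in the genome. The part of unique mapping in the difference between the genes was not tested.

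Agtr2, the type 2 receptor gene (ENSMUSG00000068122.12, chrX:21350763-21355403, plus strand), had no interval, and none lay within 10 kb on either side. The nearest intervals were 122182 bp before the gene at 4.65-fold and 11094 bp after it at 1.83-fold. All words of the stretch (100%) occurred once in the genome. The Agtr2 promoter window had a GC content of 32.5%, 2 CpG and a CCAAT match on the opposite strand. An absent interval says that no summit passed the caller's q threshold of 0.05 in the pool, not that the site was closed in every cell.

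Other genes of the pathway, 16 in a list of peptidases, receptors and related proteins, had an interval at the start in 10 cases (62.5%), against 75.8% of protein-coding genes. All 10 reached 5-fold, so the share at 5-fold was also 62.5%, against 66.2% of protein-coding genes. The median over the 16, with absent intervals at 0, was 21.8, against 19.4 over all protein-coding genes. The highest were Prcp, a carboxypeptidase that trims angiotensins, at 78.4-fold and Lnpep, the insulin-regulated aminopeptidase, at 74.6-fold. The lowest with an interval were Ctsa, a lysosomal carboxypeptidase, at 16.9-fold and Klk1, tissue kallikrein, at 9.30-fold. Anpep and Enpep, aminopeptidases of the proximal tubule brush border, reached 27.3-fold and 26.6-fold. The 6 without a start interval were the mast cell and neutrophil proteases Cma1, Cpa3, Ctsg and Mcpt4 and the receptor genes Mas1 and Mrgprd. Mas1 had 5 intervals elsewhere, up to 10.9-fold, Cma1 had 2, up to 2.03-fold, and Cpa3 had 1, at 1.96-fold. Ctsg, Mcpt4 and Mrgprd had none.

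The labelled tissue was checked against marker genes. All 10 markers of kidney epithelium had an interval at the start, between 3.14-fold and 33.1-fold, and the podocyte marker Nphs1 stood at 3.14-fold. All 8 vascular, mural and immune markers had one, between 1.90-fold and 31.2-fold. Of 11 markers of other organs, 4 had one, the highest being Apoa2 at 80.3-fold and Star at 10.5-fold, while the adrenal genes Cyp11b1, Cyp11b2 and Cyp21a1 had none. Of all protein-coding genes, 75.8% had an interval at the start. At least 5-fold was reached there by 8 of the kidney epithelial markers, 4 of the vascular, mural and immune ones and 2 of those of other organs. Over all protein-coding genes this share was 66.2%. Starts of neighbouring genes inside the marker intervals were not examined. The median start-site fold enrichment was 8.45 over the kidney epithelial markers and 4.84 over the vascular, mural and immune ones. It was 0 over the markers of other organs and 19.4 over all protein-coding genes, with absent intervals at 0. Juxtaglomerular, mural and male germ cell markers are given beside Ren1 and Ace above, and the part of cell composition in any value was not tested.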

How the data were processed

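Nuclei from kidney cortex of WT and Acly cKO mice were profiled by ATAC-seq. Per their methods, the authors trimmed 50-base reads with fastp, aligned them to mm39 (GRCm39) with Bowtie2 2.3.4.3, removed duplicates, kept uniquely mapped reads, called peaks with MACS3 3.0.0 at a q threshold of 0.05 with reads extended to 200 bases, and removed blacklisted regions with bedtools 2.29.1. The methods also print a shift of 100 bases whose sign is unclear. Depending on that sign, the signal is centred on the cut sites or moved away from them, so the distances between summits and starts, above all those of a few bases, are positions in the call and not exact sites of open chromatin. The deposited peak list gives, for each summit, fold enrichment, a linear ratio that the authors' caller computed against its background. A further column of the deposited list holds the −log10 q-value from that caller. The deposited summit list before filtering holds the same −log10 q-value, and the authors' filter removed 0 summits at these genes. By its peak names the call is a pooled one, but the files do not list its libraries, and 0 columns belong to single libraries, so depth per library and replicate error are unknown.

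Rows were grouped into distinct intervals, each described by its summit of lowest q. Intervals were placed on GENCODE M39, with coordinates counted from 1. RefSeq starts come from a promoter table on GRCm38.p6. Their sequences were matched to GRCm39 within 20 kb of each gene, which placed 10 starts of 7 genes. Agtr1a had no entry in that promoter table. Sequences printed were read from GRCm39. Words of 50 bases were counted over the genome on both strands. No test was planned or made. The genes, gene lists and markers were chosen with earlier results of these data known. All 8 genes are named with their strongest intervals, and other pathway genes by the highest, the lowest and those without an interval, to which Anpep and Enpep were added after their values were seen. From the pathway list, the marker list and the sequences, 1 item each is not reported here. Scripts were tested on simulated data. Python 3.11.15, numpy 2.4.6, pandas 2.3.3, pysam 0.24.0, numba 0.67.0, biopython 1.88 and matplotlib 3.10.9 were used.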

Additional observations from a re-analysis of the deposited data

How the results depend on the processing

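The number of intervals at the 8 genes depended on the threshold. It was 68 as called, 34 with a q under 1e-05 and 17 with a fold enrichment of at least 5. It was 67 when the highest summit had to lie in the stretch examined, 64 over the gene body alone and 76 with 10 kb on either side. The number of genes with an interval at the start was 6, and 5 under either stricter threshold. It was 6 when a summit had to lie within 1 kb, 7 with the start of any annotated transcript, which added Ren1, and 6 with RefSeq starts, a choice made after the data were seen. Of these 6, 5 had an interval at a RefSeq start. Agtr1a had no entry in the promoter table used and was counted by its canonical start. Of 40 counts for single genes, 15 moved by more than 1.5 times. The strongest fold enrichment moved for Ren1 alone, to 23.6 with 10 kb on either side, from an interval over the start of the neighbouring gene Etnk2. No paired analysis was possible because the call has no column per library, and for the same reason no replicate could be left out. Depth limits what an absent interval shows, and it is unknown here.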
